A study of Mus musculus with 55 samples.

Results

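The genes described here encode the phase II conjugation enzymes of the mouse liver: the UDP-glucuronosyltransferases (UGT), the sulfotransferases (SULT) and the glutathione S-transferases (GST). They were chosen by name, as every gene whose symbol starts with a UGT1A, UGT2A, UGT2B, UGT3A, SULT or GST family prefix (cytosolic, kappa or microsomal GST) followed by a digit. This gave 65 genes of 24478 in the table, namely 24 GST, 21 SULT and 20 UGT genes. Their transcripts were measured by RNA sequencing in 55 libraries of 10 liver cell populations sorted by flow cytometry from C57B/L6 mice. Of these, 27 libraries are labelled normal and 28 come from mice after partial hepatectomy (PH), an operation that takes out a share of the organ. Sex, age and the time between surgery and sorting are not in the labels. The main comparison was between 4 libraries of normal hepatocytes and 4 libraries of PH hepatocytes. The other populations were clonal biliary epithelial cells (cBEC, 4 normal and 2 PH libraries), biliary epithelial cells (BEC, 4 and 2), non progenitor ducts (NPD, 2 and 2) and endothelial cells (EC, 2 and 3). Sinusoidal endothelial cells (LSEC, 3 and 5), Kupffer cells (KC, 2 and 3), stellate cells (HSC, 2 and 3), Thy1 cells (2 and 2) and blood cells (2 and 2) completed the set.

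Conjugation enzymes attach a polar group to bilirubin, bile acids, hormones, drugs and reactive electrophiles, so that the product can be carried out of the cell. UGTs use UDP-glucuronic acid or another UDP-sugar in the endoplasmic reticulum, SULTs use the sulfate donor PAPS in the cytosol, and GSTs use glutathione. Hepatocytes carry most of this activity, and removal of liver tissue makes the remaining hepatocytes enter a period of growth.

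The UGT1A genes need a caution that their sequences show. Each has its own first exon, which encodes the part of the enzyme that binds the acceptor, and all share the downstream exons. The lines below give the end of each gene's own exon in lower case and the start of the first shared exon in capitals, from GENCODE M21 transcripts (GRCm38, chromosome 1, plus strand, shared exon at chr1:88215044-88215175).
Ugt1a1: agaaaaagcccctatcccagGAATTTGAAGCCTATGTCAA
Ugt1a2: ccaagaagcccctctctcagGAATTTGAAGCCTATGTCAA
Ugt1a5: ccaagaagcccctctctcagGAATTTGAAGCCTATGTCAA
Ugt1a6a: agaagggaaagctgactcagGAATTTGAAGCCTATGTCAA
Ugt1a6b: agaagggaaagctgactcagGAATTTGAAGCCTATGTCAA
Ugt1a7c: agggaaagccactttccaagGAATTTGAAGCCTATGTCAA
Ugt1a9: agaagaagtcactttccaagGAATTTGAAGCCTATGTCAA
Ugt1a10: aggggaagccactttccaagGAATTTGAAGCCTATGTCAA
The capitals were the same in all 8 transcripts. The part from the first shared exon to the end made up 57.1% (Ugt1a6a) to 71.7% (Ugt1a7c) of the transcript. In Ugt1a7c this part was longer, at 2316 bases against 1311 to 1318 in the others, so not all of it is shared. Of the 50-base words of a transcript, 40.5% (Ugt1a7c) to 80.7% (Ugt1a6b) were found in another member. The way shared reads were counted is not given in the sources used here. The 8 UGT1A values are therefore read as a single locus below, and none is attributed to 1 enzyme. Counts of members still include the 8 as separate members, except where the locus is said to be counted once. Other close copies were Gstp1 and Gstp2, which shared 62.3% and 64.3% of their 50-base words, Gsta1 and Gsta2 (44.6% and 44.8%), and Ugt2b5 and Ugt2b38 (41.7% and 37.4% shared with any other member). Their separate values are uncertain, whereas Gsta3 and Gstm7 shared no such word with another member. In all, 23 members shared over 10% of their words and 31 shared none.

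Several properties of the 8 hepatocyte libraries bear on the results. Values are FPKM, fragments scaled to transcript length and library size, so the read depth is unknown. The FPKM of a library summed to between 960918 and 1203197, and 4 libraries lay above 1100000 FPKM (normal 1 and 4, PH 3 and 4) and 4 below (normal 2 and 3, PH 1 and 2). PH library 1 stood apart: the mean log2(FPKM + 1) of 20 mitosis genes was 3.70 there, 0.65 to 0.70 in the other PH libraries and 0.81 to 1.0 in normal libraries. The 9 hepatocyte markers, albumin among them, were all detected, with mean log2 levels of 10.7 to 11.4. Summed FPKM of 7 Kupffer markers was 0.26 to 6.56 in normal and 2.94 to 111 in PH libraries, the highest being PH library 2. That of 6 sinusoidal endothelial markers was 2.57 to 11.6 and 4.91 to 45.6, the highest being PH library 1. Summed blood markers reached 3.60 FPKM at most. The part of these cells in the results was not tested, and in sorted bulk samples fewer expressing cells and less RNA per cell cannot be told apart. Xist was at 0.06 FPKM at most and Y-linked Eif2s3y at 9.58 to 55.2 FPKM, in all 8 libraries.

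In hepatocytes, 36 of 47 tested conjugation enzymes had estimates below 0 after PH, against 5657 of all 10029 genes tested. Of these 47, 19 fell and 0 rose (limma, Benjamini-Hochberg adjusted p under 0.05 over all genes). Over all 10029 genes tested, 6.19% passed, 4.41% as lower and 1.78% as higher. That split, 442 lower and 179 higher, moved to 236 higher of 568 under quantile normalization and 195 higher of 490 under upper-quartile scaling, while 0 members rose under either. With the UGT1A locus counted once, 12 of 40 fell and 29 had estimates below 0. At an unadjusted p under 0.05 in limma, 26 members were lower and 2 higher, against 1512 and 645 of all genes tested. With the UGT1A locus counted once, these were 19 and 2. The median change on the log2(FPKM + 1) scale was -0.84 over the 47 members and -0.07 over all genes tested. By family, 6 of 21 GST, 3 of 8 SULT and 10 of 18 UGT members fell. Of these 10, 8 were the genes of the UGT1A locus and 2 were among 7 UGT2B genes. In 21 of the 47 members every PH library lay below every normal library, against 13.2% of all genes. With the UGT1A locus counted once, this held for 14 of 40. In 1 member, Mgst1, every PH library lay above, against 4.99%. The other 18 members were too low to test in hepatocytes, with 0.59 FPKM at most, and 7 of them were listed at 0 in all 8 libraries.

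**Figure D1:**
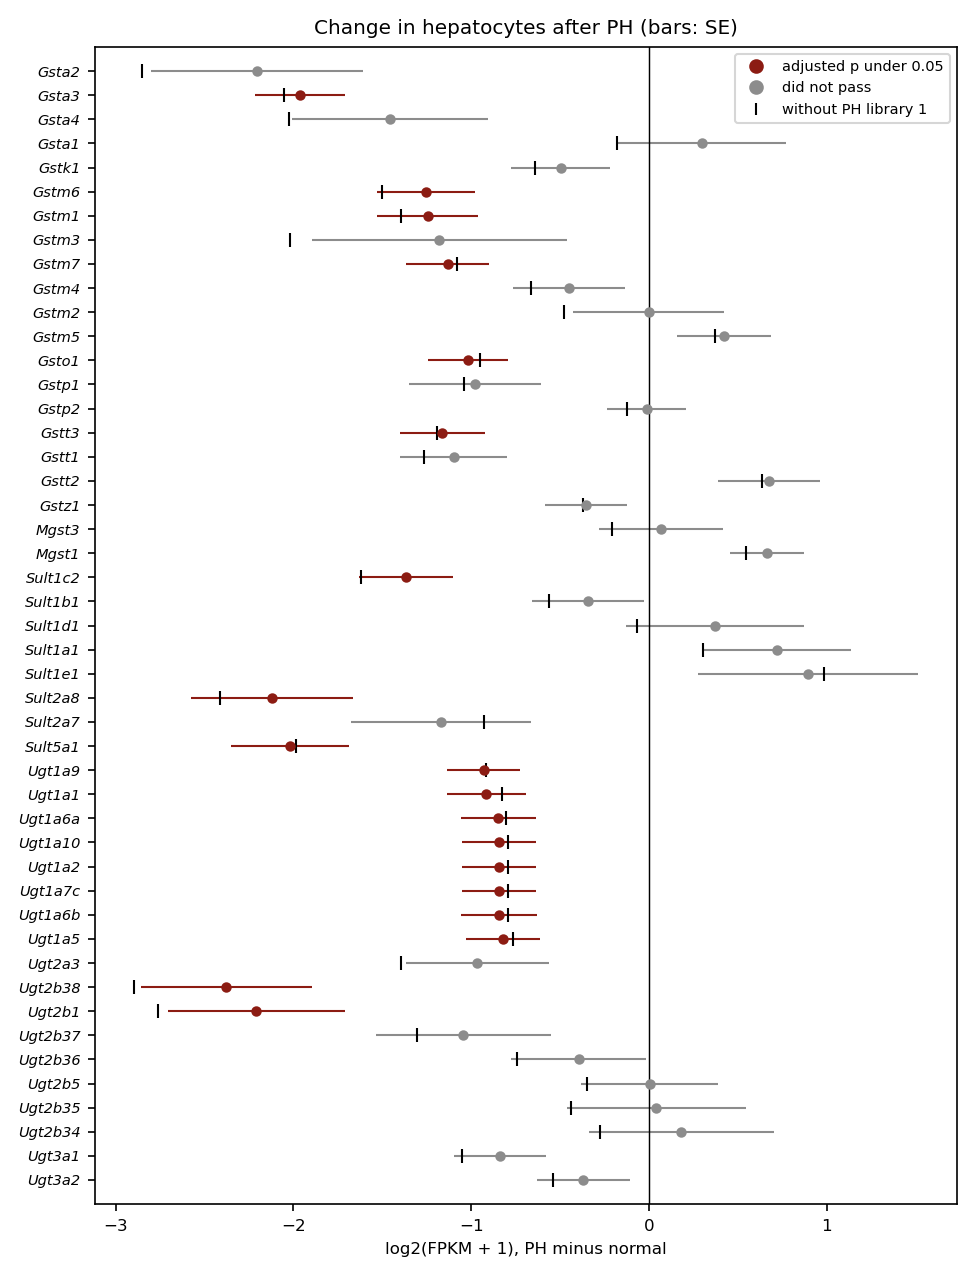
Change of the 47 tested members in hepatocytes, PH minus normal on the log2(FPKM + 1) scale, ordered by family and then by size (points: estimate, bars: SE, n = 4 and 4 libraries, red: limma adjusted p under 0.05, ticks: estimate without PH library 1). Red points all lie left of 0, Ugt2b38 is the lowest of them at -2.38, and the highest estimate is that of Sult1e1 at 0.89, which did not pass.

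The call counts rested on single libraries. Without PH library 1, 18 members fell and 0 rose (over all genes 6.79% passed, 4.82% as lower), and 17 of 40 with the UGT1A locus counted once. Without any other 1 library, 2 to 8 members fell: 4 without normal library 1, 5 without normal 2, 6 without normal 3, 6 without normal 4, 4 without PH 2, 8 without PH 3 and 2 without PH 4. Calls over all genes also went down in these fits, from 621 to between 302 (without PH 4) and 489 (without PH 3). The 2 members that passed in each of these fits were Gsta3 and Sult5a1. All 19 estimates stayed below 0 without PH library 1, as they had to, since every PH library lay below every normal one.

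Among the alpha-class GSTs, Gsta3 fell. This gene (NM_010356, chromosome 1, 21230666 to 21255656, plus strand, mm9), which in the mouse detoxifies the epoxide of aflatoxin, was at 1482, 901, 836 and 1497 FPKM in the normal libraries. After PH it was at 351, 276, 276 and 269 FPKM. PH library 1 was the highest PH library, the others were close to each other, and all lay below the lowest normal library. The mean went from 1179 ± 360 to 293 ± 38.9 FPKM (SD, n = 4 each), a 4.03-fold lower level (log2 change -1.96, SE 0.25, limma adjusted p 0.00221). Gsta3 was 87.1% of the summed alpha-class FPKM in normal hepatocytes.

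Gsta2 and Gsta4 of the same class did not pass with all libraries. Gsta2 was at 46.1, 23.7, 25.1 and 51.2 FPKM in normal and at 28.6, 2.27, 5.0 and 5.06 FPKM in PH hepatocytes (log2 change -2.20, limma adjusted p 0.0600). Gsta4, which conjugates the lipid peroxidation product hydroxynonenal, was at 169, 118, 90.6 and 167 FPKM and then at 157, 17.0, 43.1 and 42.6 FPKM (log2 change -1.46, limma adjusted p 0.163). In both, PH library 1 lay inside the normal range and the other 3 PH libraries lay below it. Without PH library 1 both passed, with limma adjusted p 0.00345 for Gsta2 (log2 change -2.85) and 0.0178 for Gsta4 (-2.03).

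The sequence before the Gsta3 start site is shown because Gsta3 was the member with the smallest p and because it holds a motif of the antioxidant factor NRF2, described below. These are the 250 bases before the start site, chr1:21240335-21240584, plus strand, from RefSeq on GRCm38.p6. Capitals mark an antioxidant response element core (TGACNNNGC).
Gsta3: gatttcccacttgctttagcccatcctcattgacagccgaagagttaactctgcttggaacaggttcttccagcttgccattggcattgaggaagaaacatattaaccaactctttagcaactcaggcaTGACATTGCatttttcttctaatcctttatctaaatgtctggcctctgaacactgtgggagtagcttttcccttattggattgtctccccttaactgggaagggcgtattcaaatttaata
Both strands of the windows from 250 bases before to 50 bases after each start site were searched, and 57 of the 65 members matched, with 69 windows. The antioxidant core was in 4 of the 69 windows (5.80%) and in 12.4% of all 32851 windows. Its 4 genes are shown with the core in capitals, since only a part of them fell.
Gsta3 core: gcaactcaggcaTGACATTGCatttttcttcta
Gstm7 core: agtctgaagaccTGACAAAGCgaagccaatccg
Gstm5 core: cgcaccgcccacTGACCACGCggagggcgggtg
Mgst1 core: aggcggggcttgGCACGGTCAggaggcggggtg
Gsta3 and Gstm7 fell after PH, while Gstm5 (log2 change 0.42, limma adjusted p 0.398) and Mgst1 (0.67, 0.0954) did not pass. The core GCGTG, bound by the aryl hydrocarbon receptor complex, was in 12 windows (17.4% against 32.4%), among them that of Gstm1 and Ugt1a5. A match is a description of the letters and not a bound site, and GCGTG can overlap the antioxidant core, as in Gstm5.

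Of the 7 mu-class genes, clustered on chromosome 3, 3 fell: Gstm1, Gstm6 and Gstm7. Gstm1 (NM_010358, chromosome 3, 107815168 to 107820891, minus strand, mm9), the most abundant mu-class enzyme here, was at 921, 796, 789.8 and 944 FPKM in normal and at 494, 203, 393 and 436 FPKM in PH hepatocytes. The groups did not overlap, and PH library 2 was the lowest. The level was 2.26-fold lower (log2 change -1.24, SE 0.28, limma adjusted p 0.0311). Gstm6 went from 110.5 ± 18.2 to 47.7 ± 19.4 FPKM (SD, n = 4 each, log2 change -1.25, limma adjusted p 0.0270). Gstm7, whose sequence is not shared with another member, went from 82.1 ± 22.1 to 36.2 ± 5.17 FPKM (SD, n = 4 each, log2 change -1.13, limma adjusted p 0.0204). These losses were similar in size, 2.26-fold to 2.31-fold.

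The remaining mu-class genes did not pass. Gstm3 was at 82.0, 92.5, 79.3 and 74.3 FPKM in normal hepatocytes and at 210.1, 10.4, 27.0 and 25.4 FPKM after PH. PH library 1 was above all normal libraries and the other 3 were below all of them, and without it Gstm3 passed (log2 change -2.02, limma adjusted p 0.00869). Gstm2 had the same order of libraries, at 101 FPKM in PH library 1 and 19.3 to 31.2 FPKM in the other PH libraries, against 32.6 to 41.5 FPKM in normal libraries. Gstm1 did not pass without any 1 of the 4 normal libraries or PH library 3 or 4, and Gstm6 without normal 1, 2 or 4 or PH 2, 3 or 4.

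The omega gene Gsto1 and the theta gene Gstt3 fell, to levels 2.06-fold and 2.38-fold lower. Gsto1 (NM_010362, chromosome 19, 47929463 to 47939278, plus strand, mm9), which reduces disulfides and dehydroascorbate, was at 160.4, 109, 108 and 168 FPKM in normal and at 57.2, 57.5, 77.3 and 71.8 FPKM in PH hepatocytes. Every PH library was below every normal one (log2 change -1.02, SE 0.23, limma adjusted p 0.0279). Gstt3 was at 59.3, 37.7, 33.2 and 61.4 FPKM and then at 21.5, 19.0, 21.7 and 18.3 FPKM (log2 change -1.16, limma adjusted p 0.0200). Its neighbour on chromosome 10, Gstt1, which acts on small halogenated compounds, was at 466, 285, 262 and 467 FPKM and then at 236, 108, 169 and 176 FPKM. These groups did not overlap either, but Gstt1 did not pass (log2 change -1.10, limma adjusted p 0.0622), except without PH library 1 (0.0408) or with a term for the column sum. Gstt2, the third gene of that cluster, had a mean of 76.7 ± 21.9 FPKM in normal and 124 ± 33.9 FPKM in PH hepatocytes (SD, n = 4 each, log2 change 0.67, limma adjusted p 0.211). Gstm7, Gsto1 and Gstt3 each did not pass without normal library 1 or 4 or PH library 2 or 4.

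The 2 most abundant GSTs lay on opposite sides of 0 and neither passed. Mgst1 (NM_019946, chromosome 6, 138089058 to 138105273, plus strand, mm9), a membrane-bound transferase and peroxidase, was at 5372, 4805, 4409 and 4299 FPKM in normal hepatocytes and at 9595, 7151, 7345 and 6143 FPKM after PH. Every PH library was above every normal one, a 1.60-fold higher mean (log2 change 0.67, SE 0.21, limma adjusted p 0.0954). Gstp1 (NM_013541, chromosome 19, 4035411 to 4037912, minus strand, mm9), the pi-class enzyme, was at 2395, 1383, 847 and 2617 FPKM and then at 956, 574, 843 and 1055 FPKM. The normal libraries spread widely and overlapped the PH libraries, and the log2 change was -0.98 (SE 0.37, limma adjusted p 0.163). Gstz1, the maleylacetoacetate isomerase of tyrosine breakdown, went from a mean of 638 to 495 FPKM (limma adjusted p 0.414), and Gstk1 from 202 to 140.4 FPKM (limma adjusted p 0.343).

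**Figure D2:**
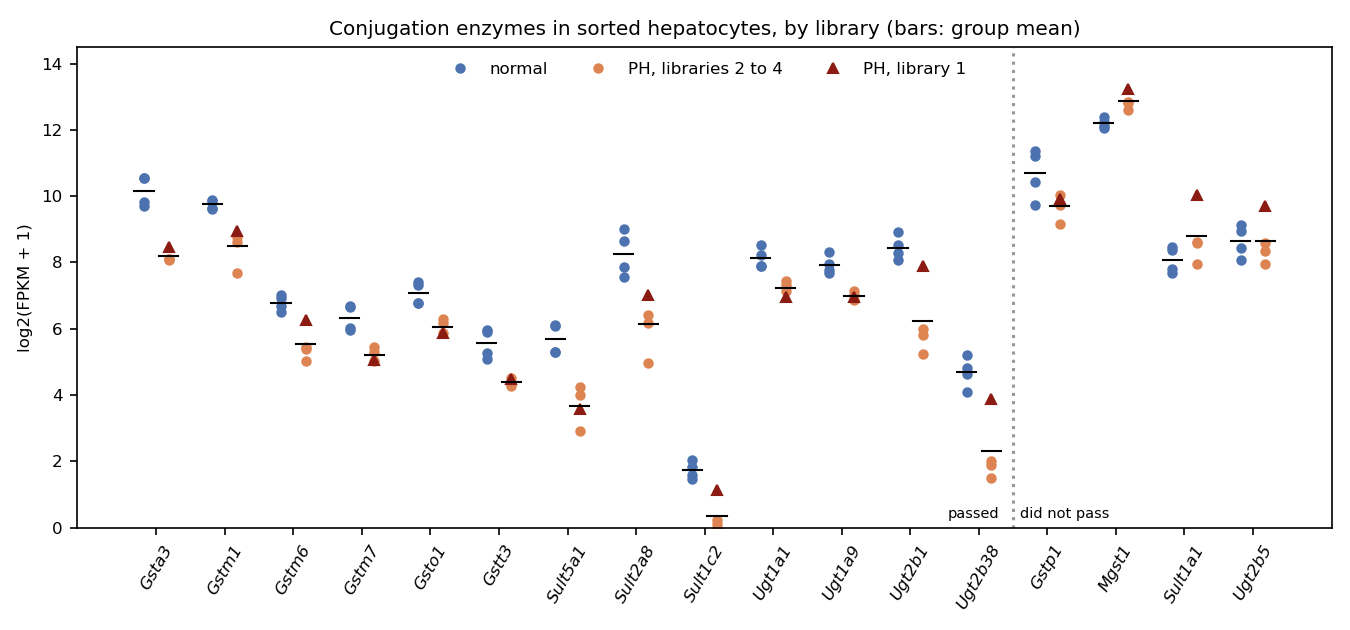
Levels of 17 members in sorted hepatocytes as log2(FPKM + 1), one symbol per library (blue: 4 normal, orange: PH libraries 2 to 4, dark triangle: PH library 1, black bars: mean of the log2 values of a group). In the 13 genes left of the dotted line no PH library reaches a normal one, while Gstp1, Sult1a1 and Ugt2b5 overlap and Mgst1 lies above.

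All 24 GST genes together had 10645 ± 1950 FPKM in normal and 10487 ± 1934 FPKM in PH hepatocytes (SD, n = 4 each), and Mgst1 alone was 44.4% of the normal sum. Without Mgst1 the other 23 had 5924 ± 1760.2 and 2929 ± 719 FPKM (SD, n = 4 each). No test was made on sums.

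Of the 21 SULT genes 8 were tested, and 3 fell. Sult2a8 (NM_001199306, chromosome 7, 14996035 to 15023900, minus strand, mm9), a bile acid sulfotransferase of mouse liver, was at 232, 513, 399 and 187 FPKM in normal and at 129, 71.7, 30.3 and 84.1 FPKM in PH hepatocytes. All PH libraries were below the normal ones, a 4.23-fold lower mean (log2 change -2.12, SE 0.46, limma adjusted p 0.0248). Sult2a8 was 98.0% of the summed SULT2 level of normal hepatocytes, which went from 339.7 ± 154 to 81.3 ± 38.9 FPKM (SD, n = 4 each).

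Sult5a1, a sulfotransferase whose substrate is not well known (NM_020564, chromosome 8, 125666747 to 125682180, minus strand, mm9), was at 68.5, 38.4, 38.4 and 67.3 FPKM in normal hepatocytes. After PH it was at 11.0, 6.55, 14.9 and 17.9 FPKM. No PH library reached a normal one, with a 4.22-fold lower mean (log2 change -2.02, SE 0.33, limma adjusted p 0.00728). Sult1c2 was low, at 1.76, 3.15, 2.57 and 1.98 FPKM in normal libraries and 1.18, 0.17, 0.08 and 0 FPKM in PH libraries (log2 change -1.37, SE 0.27, limma adjusted p 0.0163). Sult2a8 and Sult1c2 did not pass without normal library 2 or 3 or PH library 2 or 4.

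The phenol sulfotransferase Sult1a1, the most abundant SULT1 gene, did not pass. It was at 353, 204, 221 and 332 FPKM in normal hepatocytes and at 1059.6, 246, 383 and 389.6 FPKM after PH (log2 change 0.72, SE 0.42, limma adjusted p 0.360). PH library 1 was the highest by far, and without it the log2 change was 0.30. Sult1d1, which acts on catecholamines, showed the same high library (112 FPKM, against 16.7 to 59.9 FPKM in the other PH libraries and 26.1 to 50.4 FPKM in normal ones). The estrogen sulfotransferase Sult1e1 was at 0.07 to 1.48 FPKM in normal libraries, at 11.3 FPKM in PH library 2 and at 0.53 to 1.43 FPKM in the other PH libraries. Sult2a1 and Sult3a1, which are predominantly female genes in mouse liver, were at 0.22 and 0.05 FPKM at most in hepatocytes.

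All 8 UGT1A genes fell, with closely similar values at a single locus. Ugt1a1, the bilirubin enzyme (NM_201645, chromosome 1, 90108534 to 90116577, plus strand, mm9), was listed at 236, 365, 301 and 236 FPKM in normal and at 123, 175, 160.0 and 139 FPKM in PH hepatocytes. Ugt1a6b, with the highest normal mean of the locus, went from 317 ± 70.3 to 174 ± 19.0 FPKM (SD, n = 4 each). No PH library reached a normal one, and the 8 log2 changes lay between -0.93 (Ugt1a9, SE 0.20) and -0.82 (Ugt1a5, SE 0.21). The mean of the 8 values went from 237 ± 51.4 to 128 ± 14.2 FPKM (SD, n = 4 each). The limma adjusted p ranged from 0.0263 for Ugt1a9 to 0.0473 for Ugt1a5, and 7 of the 8, all but Ugt1a9, did not pass without any 1 of the 8 libraries. None of the 8 passed under quantile normalization or upper-quartile scaling.

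The UGT2B genes of chromosome 5 divided into 2 that fell and 5 that did not pass. Ugt2b1 (NM_152811, chromosome 5, 87345664 to 87355528, minus strand, mm9) was at 311, 483, 368 and 267 FPKM in normal and at 237, 63.3, 37.0 and 55.2 FPKM in PH hepatocytes (log2 change -2.21, SE 0.50, limma adjusted p 0.0293). Ugt2b38 (NM_133894, chromosome 5, 87838965 to 87853228, minus strand, mm9) was at 24.0, 36.4, 27.2 and 16.0 FPKM and then at 13.7, 3.01, 1.8 and 2.75 FPKM (log2 change -2.38, SE 0.48, limma adjusted p 0.0190). In both, PH library 1 was the highest of the PH libraries but still below the lowest normal one. Without it the changes were -2.76 and -2.90. Ugt2b38 shares sequence with Ugt2b5, so its separate level is uncertain.

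Their neighbours did not pass. Ugt2b36, with the highest normal mean of the UGT2B genes just above Ugt2b5, had means of 419.8 and 342 FPKM (log2 change -0.40, limma adjusted p 0.597). Ugt2b5 was at 348, 556, 498 and 269 FPKM in normal and at 839.8, 386, 247 and 325 FPKM in PH hepatocytes (log2 change 0.00, SE 0.39). Ugt2b34 and Ugt2b35 had log2 changes of 0.18 (SE 0.52) and 0.04 (SE 0.50). In each of the 3 genes PH library 1 exceeded all 7 other libraries. The summed level of the 5 UGT2B genes that did not pass was 1129 ± 403 FPKM in normal and 1146 ± 743 FPKM in PH hepatocytes (SD, n = 4 each). Ugt2b1 did not pass without any 1 library other than PH library 1, and Ugt2b38 did not pass without normal 1, 2 or 3 or PH 2 or 4.

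Ugt2a3 and the UGT3A genes did not pass with all libraries. Ugt2a3 was at 153, 206, 179 and 123 FPKM in normal hepatocytes and at 204, 70.6, 49.8 and 64.9 FPKM after PH (log2 change -0.97, limma adjusted p 0.196). Without PH library 1 it passed (-1.40, limma adjusted p 0.00997). Ugt3a1, which transfers N-acetylglucosamine, was at 32.6, 33.7, 29.6 and 29.2 FPKM and then at 27.0, 19.5, 13.9 and 11.3 FPKM. Its groups did not overlap, and it passed only without PH library 1 (limma adjusted p 0.0194, against 0.0945 with all libraries), with the column-sum term described next or in the fit of all groups. Ugt3a2, the higher of the 2, had means of 189 and 148 FPKM (limma adjusted p 0.458).

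The members also differed between libraries of the same group. Of the 47 tested members, 29 had their highest PH value in PH library 1, and 20 had their lowest in PH library 2. In normal hepatocytes, 19 of 21 GST members were lower in the libraries with the lower column sum (median difference -0.68), while 18 of 18 UGT members (0.48) and 6 of 8 SULT members were higher there. GST transcripts are short, with a median of 1097 bases, and SULT and UGT transcripts are longer, with medians of 1971.5 and 2234 bases. Across 9902 genes, the Spearman correlation of transcript length with the same difference was 0.50, given as a description, since genes of a library are not independent. With the PH minus normal change it was -0.11. For the PH libraries, low minus high column sum, it was 0.255. The median of that PH difference was 0.02 in GST, 0.51 in SULT and 0.72 in UGT members. The part of transcript length in these differences was not tested. All 19 members that fell were lower after PH on both sides of the split at 1100000 FPKM. This had to be so, since in each of them every PH library lay below every normal one.

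With a term for the split, a fit added after seeing the data, 24 members fell and 2 rose, against 21.8% of all genes, 15.5% lower and 6.32% higher. The 2 that rose were Mgst1 (limma adjusted p 0.0247) and Gstt2 (0.0266). Gstp1 (0.0270), Gsta2 (0.0372), Gstt1 (0.0146), Ugt2b37 (0.0139) and Ugt3a1 (0.0173) were the further genes that fell. Within the split, Gstp1 differed by -1.41 between PH 3 and 4 and normal 1 and 4, and by -0.55 between PH 1 and 2 and normal 2 and 3.

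**Figure D3:**
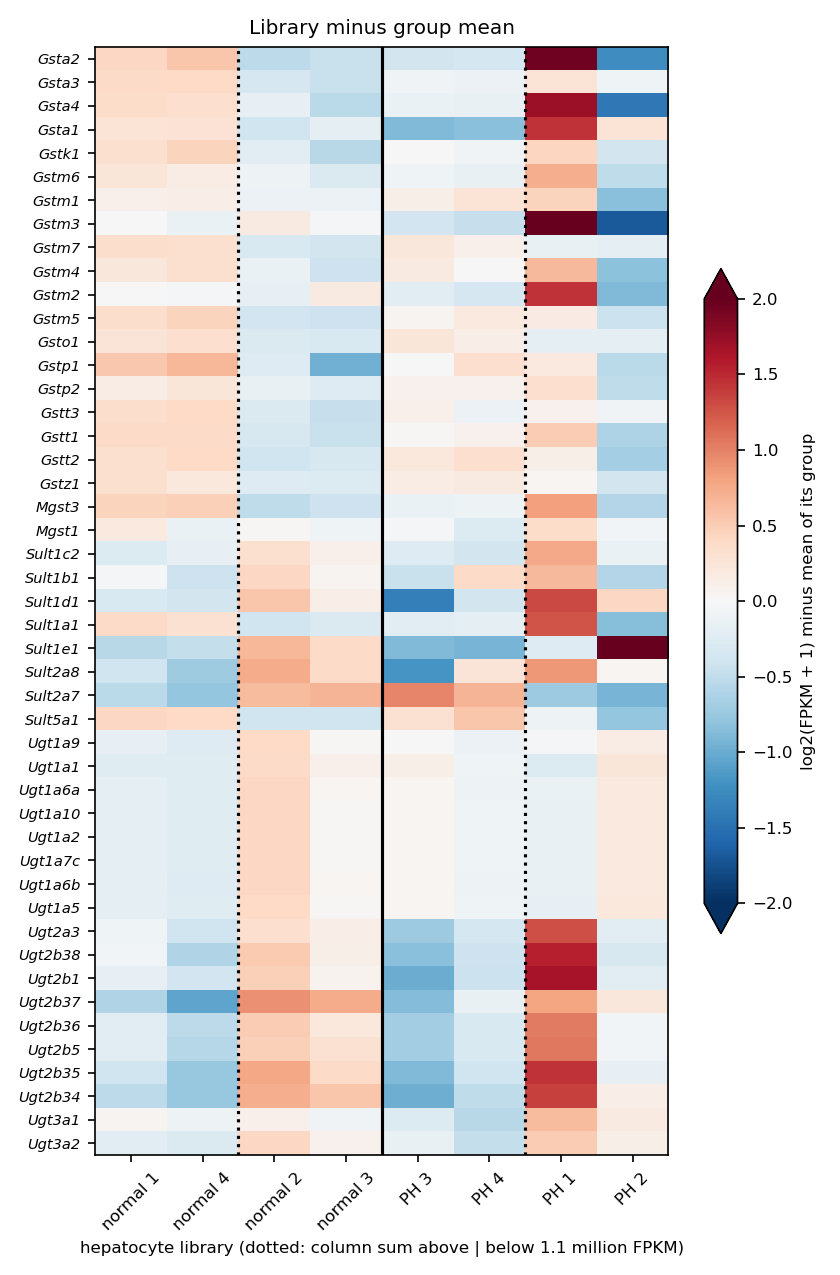
Deviation of each hepatocyte library from the mean of its group for the 47 tested members, in log2(FPKM + 1), with normal libraries left and PH libraries right of the solid line and the column-sum split dotted. Most GST rows are high in normal 1 and 4 and UGT rows in normal 2 and 3, and PH 1 is the highest PH library for 29 members.

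Genes that supply the conjugating groups were counted next. The list counts here stand beside 4.41% of all genes tested that fell and 1.78% that rose. Of 5 genes listed for UDP-glucuronic acid, 1 rose. Slc35b1, placed in the nucleotide sugar transporter family, went from 75.2 ± 13.2 to 142 ± 9.76 FPKM (SD, n = 4 each, log2 change 0.93, limma adjusted p 0.0217). Its part in the supply of UDP-glucuronic acid was not tested. For sulfate and PAPS, 3 of 10 genes fell and 0 rose. Papss2, which makes PAPS, was at 47.7, 78.0, 78.1 and 42.1 FPKM in normal and at 29.6, 22.1, 11.6 and 15.1 FPKM in PH hepatocytes (log2 change -1.63), and no PH library reached a normal one. Ethe1 and Suox, which oxidise sulfur compounds on the way to sulfate, changed by -1.37 and -1.16. None of 12 glutathione genes passed in limma, 8 of them having an unadjusted p under 0.05 (3 higher and 5 lower). Without PH library 1 the cysteine-producing enzyme Cth passed as lower (limma adjusted p 0.0196, against 0.154 with all libraries). The glutathione synthesis gene Gclc had means of 135 and 79.9 FPKM and Gss had 60.2 and 92.8 FPKM.

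Of 15 receptors and factors of conjugation genes, 1 rose and 2 fell. Nr1i3, the constitutive androstane receptor, was at 38.6, 53.8, 40.5 and 36.9 FPKM in normal hepatocytes and at 52.4, 130.0, 102 and 131 FPKM after PH (log2 change 1.2, SE 0.30, limma adjusted p 0.0451). Only PH library 1 overlapped the normal range. Among those that fell, Cebpa, a transcription factor of mature hepatocytes, went from 223 ± 88.4 to 77.4 ± 28.6 FPKM (SD, n = 4 each, log2 change -1.50), and it did not pass without PH library 1 (limma adjusted p 0.0719). Nr1i2, the pregnane X receptor, and Nfe2l2, the antioxidant factor NRF2, did not pass, with log2 changes of 0.14 and -0.25. Of 14 other NRF2 targets 3 fell and 0 rose, Osgin1 by 1.53 and G6pdx by 1.35 on the log2 scale among them. The classical target Nqo1 had means of 5.63 and 8.93 FPKM and did not pass.

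Among phase I genes, of 25 cytochrome P450 genes and their electron donors 13 fell and 1 rose, with a median change of -1.46. The largest falls were Cyp2a5 (-3.11), Cyp2c70 (-2.36), Cyp2c29 (-2.30), Cyp2a4 (-2.16) and Cyp1a2 (-2.16). Cyp2c70, which makes muricholic acids in mouse liver, went from 701 ± 271 to 134 ± 52.1 FPKM (SD, n = 4 each). Of 17 other conjugation and hydrolysis enzymes, the methyltransferase Nnmt rose from 237.5 ± 143 to 851 ± 222 FPKM (2.03) and the methyltransferase Inmt and the acyl-CoA synthetase Acsm5 fell (-5.13 and -1.21). The P450 gene that rose was Cyp3a13 (limma adjusted p 0.0398). Nnmt, Cyp2a4 and Cyp3a13 did not pass without PH library 1 (limma adjusted p 0.0657, 0.0507 and 0.0529). Of 14 transporters, Abcc6 fell (-1.60) and the other 13 did not pass, Abcc2 among them with means of 89.5 and 61.6 FPKM. Without PH library 1, 4 transporters fell, the further 3 being Abcb11, Slco1a1 and Slc10a1 (limma adjusted p 0.0404, 0.0371 and 0.0391). Over these 8 lists 24 genes fell and 4 rose, and 13 of the 24 stood in the P450 list. Of all genes tested, 4.41% fell and 1.78% rose.

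Other programs that moved in the same libraries are given as measured. Of 19 acute phase genes 14 rose, with a median change of 1.87. Male-biased liver genes (5 of 12 fell), pericentral genes (5 of 11 fell, the glutamine synthetase Glul by 2.20 on the log2 scale) and periportal genes (3 of 13 fell) had 0 rises each with all libraries. Of 12 female-biased genes only 2 were tested, and 1 of them fell, against 0 without PH library 1. Over all genes tested, 4.41% fell and 1.78% rose. Without PH library 1, the periportal gene Ctsc rose (limma adjusted p 0.00778). Hsd3b5, a male-specific steroid enzyme, went from 165 ± 13.9 to 13.4 ± 6.64 FPKM (SD, n = 4 each). The part of these programs in the changes of the conjugation enzymes was not tested. The lists share genes with each other, Cyp2c29 standing in the P450 and the pericentral list.

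The other 9 populations were examined first for the 25 members under 10 FPKM in both hepatocyte groups. Of 27 tested pairs of such a member and a population, 4 passed: Gstp2 rose in KC and in blood, and Mgst2 and Sult2b1 fell in blood. In KC 36.8% of all genes passed and in blood 64.0%. Mgst2, which can make leukotriene C4, was at 38.4 and 40.9 FPKM in normal blood and at 1.05 and 1.97 FPKM in PH blood (log2 change -4.04, SE 0.24, limma adjusted p 0.000833). Blood was its highest population, the next being normal NPD at 9.77 and 6.59 FPKM. It passed with any 1 of the 4 libraries left out, where the lone library of a group is assumed to vary like the others. Sult2b1, a cholesterol sulfotransferase, went from 4.51 and 5.07 to 0.19 and 0.60 FPKM in blood (log2 change -2.07, limma adjusted p 0.00219). The call was lost without either normal blood library (0.0560 and 0.0566).

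Marker genes differed between the same libraries. The summed FPKM of 8 blood markers was 5334 and 5726 in normal blood and 1011 and 2225 in PH blood, with none at 0 in either group. That of 7 Kupffer markers was 663 and 969 in normal blood and 9822 and 17182 in PH blood, and that of 6 sinusoidal endothelial markers 705 and 804 against 2454 and 5465. In KC the Kupffer sum was 12597 and 14022 in normal and 28064 to 29159 FPKM in PH libraries, and the sum of 6 sinusoidal endothelial markers was 3240 and 4470 against 303 to 526 FPKM. The part of these cells in the results was not tested. Gstp2 was at 11.6 and 8.13 FPKM in normal KC and at 37.8, 33.4 and 22.1 FPKM in PH KC (log2 change 1.54, limma adjusted p 0.0105). In blood it went from 0.49 and 0.68 to 7.37 and 14.6 FPKM (log2 change 2.86, limma adjusted p 0.00295). Neither passed without either normal library of its population (0.0572 and 0.0901 in KC, 0.0649 and 0.0603 in blood). The sequence shared by Gstp1 and Gstp2 makes their separate levels uncertain, and Gstp1 was listed at 0 in both normal KC libraries and at 52.8, 55.1 and 5.30 FPKM in PH KC.

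Biliary cells carried a different set of low members. Sult2b1 was at 11.3 to 22.3 FPKM in normal cBEC and 11.2 to 23.8 FPKM in normal BEC, and at 8.25 to 15.5 FPKM in the 4 PH libraries of both. Normal and PH ranges overlapped, and the level was far above the 0.07 FPKM that hepatocytes reached. Sult4a1, an orphan enzyme known from brain, was at 0.98 to 6.39 FPKM in normal cBEC and 2.78 to 7.78 FPKM in normal BEC. Sult1c2 was at 190.2, 22.1, 14.1 and 26.8 FPKM in normal cBEC and at 6.0 and 4.16 FPKM in PH cBEC, so library 1 held most of the group's mean. In BEC it was at 7.18 to 12 FPKM in normal and 4.24 and 4.65 FPKM in PH libraries. With 0.0681% of all genes passing in cBEC and 1.81% in BEC, 0 of 6 and 0 of 5 tested low members passed in limma, and at an unadjusted p under 0.05 there were 0 and 2.

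**Figure D4:**
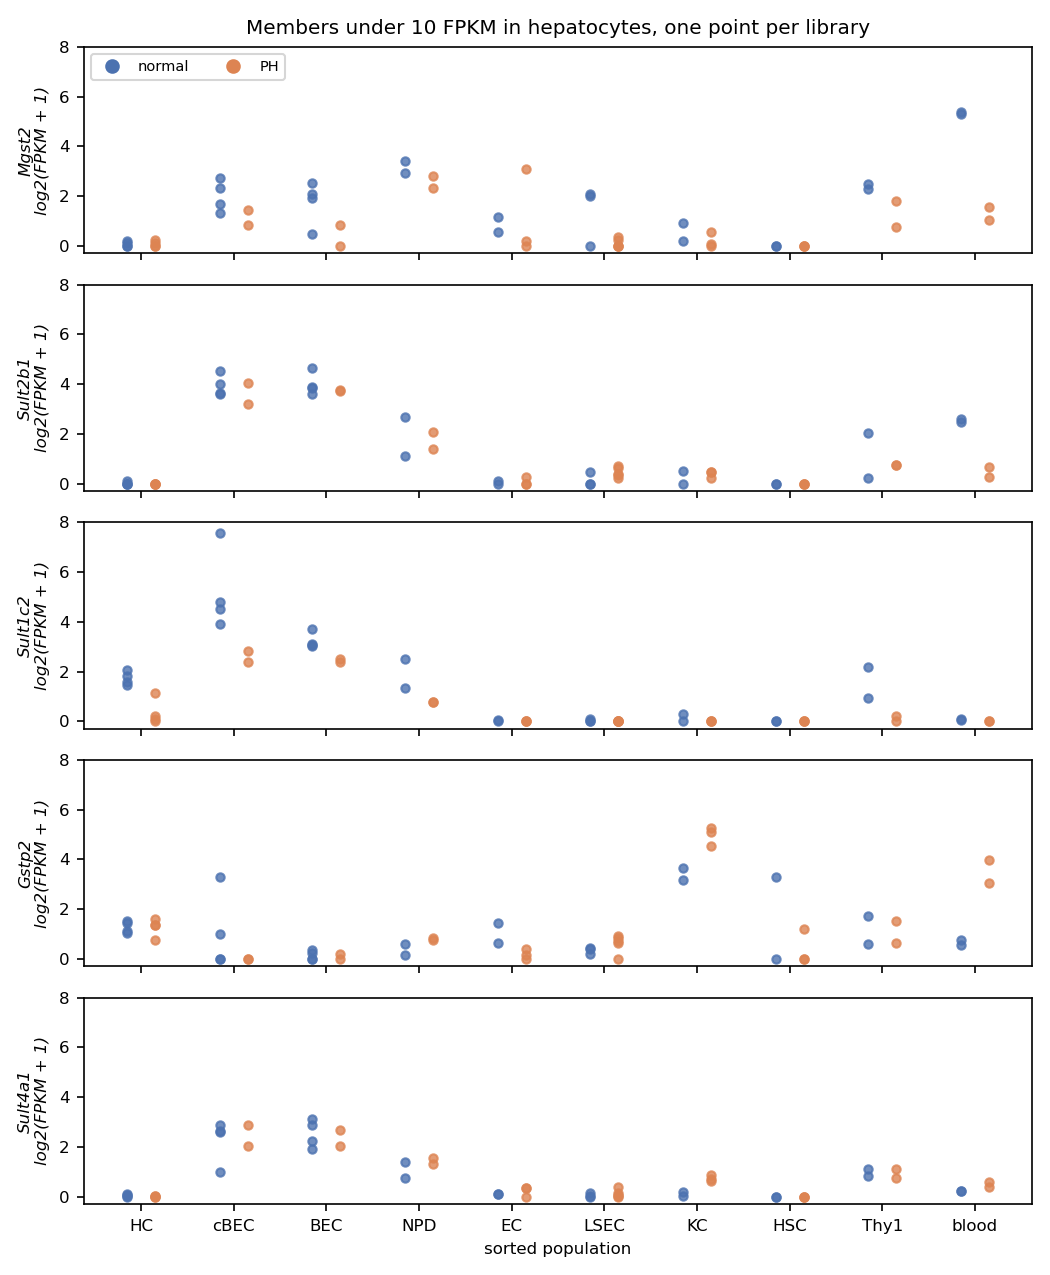
Levels of 5 members that hepatocytes hardly express, as log2(FPKM + 1) in each library of the 10 populations (blue: normal, orange: PH). Mgst2 is highest in normal blood, Sult2b1 and Sult4a1 in cBEC and BEC, Sult1c2 in cBEC with library 1 far above the others, and Gstp2 in KC.

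The members that hepatocytes express strongly need caution elsewhere, because many are listed at exactly 0. Of the 26 members with at least 100 FPKM in normal hepatocytes, 20 were listed at 0 in every normal KC library, 15 in every normal BEC library, 7 in every normal cBEC library and 0 in every normal Thy1 library. The 26 include the UGT1A genes as separate members. Gstp1 was listed at 0 by each of the 8 normal libraries of cBEC and BEC, and was at 32.9 to 43.9 FPKM in the 4 PH libraries. Mgst1 was at 110 to 283 FPKM in normal BEC and at 0 in both PH BEC libraries. Both moved opposite to their hepatocyte means. Sult1a1 did so in cBEC (-2.84), BEC (-1.69), NPD (-4.67), LSEC (-1.87) and KC (-2.25), where it passed as lower after PH, against 0.72 in hepatocytes. Gsto1 passed as higher after PH in NPD, LSEC, KC and blood, and had fallen in hepatocytes. In KC, for instance, Gsto1 was at 67.9 and 69.2 FPKM in normal and at 120.2, 119 and 109 FPKM in PH libraries.

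Over the members at 10 FPKM or more in hepatocytes, 29 of 190 tested pairs passed, in 6 populations. The 190 include UGT1A genes as separate members, each of them in blood, NPD, EC and Thy1, and no UGT1A pair passed. In blood 7 of 21 passed and in KC 6 of 12, where 64.0% and 36.8% of all genes passed. In NPD 7 of 27 passed against 15.2% of all genes, in LSEC 3 of 18 against 8.46%, in BEC 4 of 20 against 1.81% and in cBEC 2 of 20 against 0.0681%. In EC, HSC and Thy1, 0 of 25, 0 of 16 and 0 of 31 passed in limma, where 0.0249%, 0.00853% and 0.00747% of all genes did, and at an unadjusted p under 0.05 there were 4, 4 and 14. Of the 29, 19 had a sign opposite to the hepatocyte estimate and 10 the same sign, and of all 190 pairs 97 were opposite. The same direction as in hepatocytes was seen in NPD for Gstm1 (184.7 ± 43.5 to 70.5 ± 21.3 FPKM, SD, n = 2 each), Gstt1 (223 ± 21.3 to 86.3 ± 7.27 FPKM) and Gsta4 (183 ± 92.1 to 52.1 ± 3.64 FPKM). Gstm5 rose in LSEC, KC and blood and had an estimate of 0.42 in hepatocytes. It was highest in normal cBEC and BEC, at 51.4 to 202 FPKM, against 13.5 to 25.2 FPKM in normal hepatocytes. Whether listed zeros or hepatocyte RNA carried these signs was not tested.

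**Figure D5:**
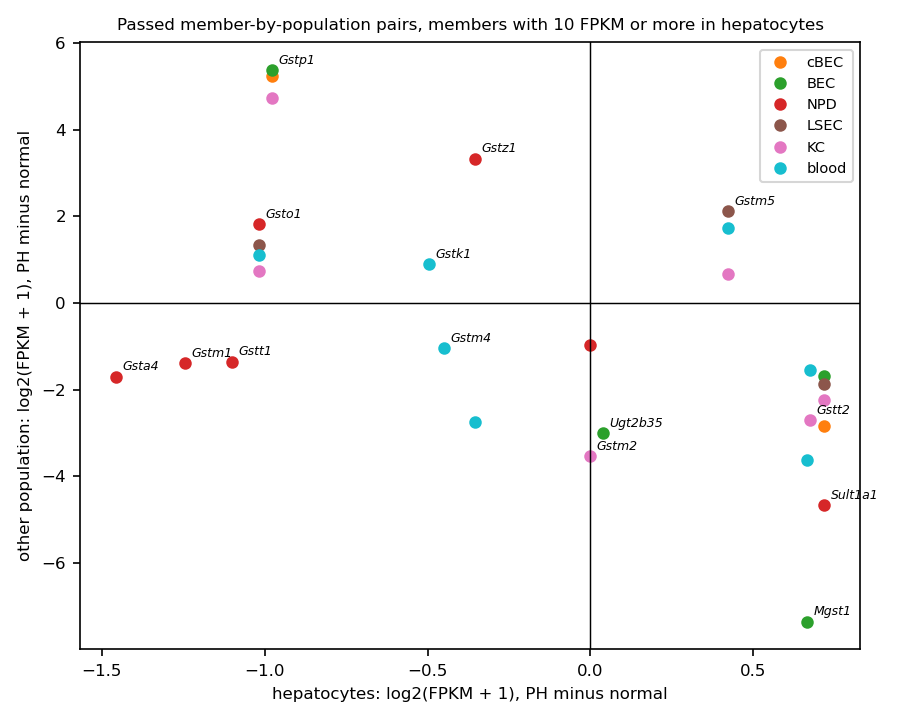
The 29 pairs of a member and a population that passed, with the change in hepatocytes on the x axis and in the other population on the y axis, both PH minus normal in log2(FPKM + 1), for members at 10 FPKM or more in hepatocytes (colour: population). Gstp1 and Gsto1 lie upper left and Sult1a1, Gstt2 and Mgst1 lower right, and 19 of the 29 points have opposite signs.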

How the data were processed

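The authors deposited a single table with a column for each of 55 libraries, whose name gives the unit as FPKM. Its 36141 rows are transcripts, and for each of 24478 symbols the row with the highest mean was used. Each of the 55 columns was matched to 1 library by its title, which also gives the group. The library titled PH cBEC 1 has the treatment tag normal and was kept as titled. The submitters' processing notes name CASAVA 1.8.2, Bowtie 1.0.0 and mm9, and the counting tool is not given in the sources used here. Coordinates are those of the table, counted from 1.

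PH was compared with normal within a population by limma 3.58.1 (R 4.3.3) on log2(FPKM + 1), with trended and robust variances, two-sided, and Benjamini-Hochberg adjustment over all genes with at least 1 FPKM in as many libraries as the smaller group. Such changes understate those of low genes. The labels do not say that replicates are separate mice, so p-values measure only the spread between libraries. The members and lists were chosen with earlier results of these data known.

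Genes were named by rule: members that passed, the most abundant member of each family in normal hepatocytes, low members that passed or were highest in another population, and listed genes that passed with a log2 change of at least 1, at most 5 a list. Other genes and members were named after their values were seen. The values of 1 gene in the list of receptors and factors are not reported here. Alternatives tried were quantile normalization, a pseudocount of 0.1, scaling to the upper quartile, testing unfiltered genes, a fit of all 20 groups, a replicate block, the mean of a symbol's rows, each library left out and, added after seeing the data, a term for column sum above 1100000 FPKM. On simulated data for hepatocytes, 173 of 200 genes changed by 2 on the log2 scale were recovered, with 11 false calls among 9780 genes. Figures were drawn with matplotlib 3.10.9.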

Additional observations from a re-analysis of the deposited data

Results flagged for a closer look

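In hepatocytes after PH, library 1 stood apart as the highest of the 4 PH libraries in 9 members and in the summed SULT level. It was at 28.6 FPKM for Gsta2 (others 2.27 to 5.06), 351 for Gsta3 (269 to 276), 101 for Gstm2 (19.3 to 31.2) and 210.1 for Gstm3 (10.4 to 27.0). It was at 1.18 FPKM for Sult1c2 (others 0 to 0.17), 204 for Ugt2a3 (49.8 to 70.6), 237 for Ugt2b1 (37.0 to 63.3), 229 for Ugt2b35 (45.2 to 74.8) and 13.7 for Ugt2b38 (1.8 to 3.01). The sum of the SULT genes was 1326 FPKM there and 401 to 539 FPKM in the others. PH hepatocyte library 2 stood apart for Sult1e1, at 11.3 FPKM against 0.53 to 1.43.

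In biliary cells, normal cBEC library 1 stood apart for Sult1c2, at 190.2 FPKM against 14.1 to 26.8, and for Gstp2, at 8.95 FPKM against 0 to 1.03. Outside hepatocytes only members under 10 FPKM in both hepatocyte groups were examined. Among other members, the same library was highest for Gsto1 (281 FPKM, others 0 to 19.2) and Gsta4 (220 FPKM, others 5.88 to 32.0). It was lowest for Gsta3 (94.8 FPKM, others 128 to 247) and Mgst1 (0 FPKM, others 32.3 to 499). Normal BEC library 1 was at 12 FPKM for Sult1c2, against 7.18 to 7.59. In all, 14 of 114 groups of 4 or more libraries had such a value, of which 10 concern PH hepatocyte library 1. Chance marks about 1 group in 20, here 5.7.

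Among the changes that passed in other populations, those of 2 members were opposite to hepatocytes with no overlap of normal and PH libraries in either, and the difference between populations was not tested. The change of Mgst1 was -7.36 in BEC and -3.63 in blood, against 0.67 in hepatocytes. Both PH libraries of BEC and both of blood were listed at exactly 0 for Mgst1, so these 2 changes need the caution given above. The change of Gsto1 was 1.83 in NPD, 1.34 in LSEC, 0.75 in KC and 1.12 in blood, against -1.02 in hepatocytes.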

How the results depend on the processing

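The count of 19 members that passed in hepatocytes, all lower, was 6 without the filter, 11 under quantile normalization, 7 under upper-quartile scaling, 13 in the fit of all 20 groups and 26 with the column-sum term (24 lower and 2 higher), and 19 with the smaller pseudocount or the mean of rows. Leaving out 1 library gave 2 to 18. Over all genes, 621 passed in the main fit, 444 without the filter, 568 under quantile normalization and 490 under upper-quartile scaling. The fit of all 20 groups gave 1364, the column-sum term 2191, and leaving out 1 library 302 to 687. Over the 8 pathway lists, 28 genes passed, against 13 without the filter, 56 with the column-sum term, and 8 to 29 with 1 library left out. The 4 calls of low members in other populations became 7 without the filter and 2 to 5 with 1 library left out. With the replicate number as a block, 5 members, 13 pathway genes and 6 low-member pairs passed, and 302 of all genes passed in hepatocytes. The labels do not say that the numbers pair the samples, and same-numbered hepatocyte libraries had correlated deviations of -0.32, 0.57, -0.67 and 0.44. Of the single results, 20 lost their call in at least 1 setting and 0 changed sign while called. The read depth is unknown, so no counting limit is given.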
